A study of Oncorhynchus mykiss with 6 samples.

Results

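The genes described here are linked to the control of translation. EIF4G2 and eif4ebp3 act where ribosomes are recruited to mRNA, while Rps6ka3 and RPS6KB2 encode kinases of ribosomal protein S6 and other targets. The genes were taken as every entry of the deposited footprint table whose symbol, ignoring case, is eif4g2, eif4ebp3, rps6ka3 or rps6kb2. This gave 5 of the 1213 entries: 2 entries of EIF4G2 and 1 each of eif4ebp3, Rps6ka3 and RPS6KB2. The EIF4G2 entries are called EIF4G2 entry 1 and EIF4G2 entry 2, in the order of the table. Ribosome footprints are the short stretches of mRNA that a translating ribosome protects from nuclease, and they were sequenced from liver of rainbow trout (Oncorhynchus mykiss). The control group held 3 libraries, at 18 °C by the sample descriptions and at 20 °C by the treatment protocol. The heat stress group held 3 libraries, at 24 °C for 8 h. The labels name no strain, sex, age or pooling of the fish. They also do not say that each library is another fish, so the error behind each p-value is that between libraries and may be technical in part.

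In most translation of animal cells, the cap-binding protein eIF4E and the scaffold eIF4G bring the small ribosomal subunit to the 5′ end of the mRNA. The 4E-BP proteins are repressors that occupy the place of eIF4G on eIF4E, and in mammals they let go when the kinase complex mTORC1, which responds to nutrients and insulin, phosphorylates them. EIF4G2, also called DAP5, is a relative of eIF4G without the part that binds eIF4E, and in mammals it serves translation of selected mRNAs. The S6 kinases phosphorylate ribosomal protein S6 and other targets. RPS6KB2 encodes an S6 kinase driven by mTORC1, and Rps6ka3 encodes RSK2, a kinase of the RSK family driven by ERK. The deposited KEGG column placed Rps6ka3 first in the MAPK signalling pathway and RPS6KB2 first in the autophagy pathway, and left EIF4G2 and eif4ebp3 unassigned.

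The authors listed entries only where FDR was under 0.05 and the change 2-fold or more in these same libraries. All 5 entries had thus been selected for differing, and their fold changes may be overestimates. The p-values, SEs and intervals below come from the same contrast and libraries, so they are no separate evidence of a change. Gene identifiers are cut short in the table, so no position or sequence is given for these genes. The symbol eif4ebp3 fills its cell and may be a longer one cut. Listed footprints ran from 362308 to 863769 a library, and the depth recovered from counts and FPKM ran from 41.4% to 100% of that of control replicate 1, with heat stress replicate 2 the shallowest. FPKM, footprints per kilobase scaled to the library's mapped total, takes out depth and length. Of 14 hepatocyte marker patterns, 8 entries were listed, 6 of them lower in heat stress, and the libraries' summed level lay at 31403 to 32760 FPKM in control but 11092 to 17877 FPKM in heat stress. No marker entry of red blood cells, leukocytes, endothelium or muscle was listed. The 1 stellate or fibroblast entry, col1a1b, went from 57.4 to 70.4 FPKM over control libraries to 26.9 to 30.0 FPKM in heat stress. The 1 entry matched to the biliary marker list, krt18, went from 52.4 to 58.5 FPKM to 136 to 171 FPKM. That krt18 is particular to biliary cells here was not established. The 2 entries matched to the gonad marker list, both ZP2, an egg coat protein gene, summed to 6.60 to 8.67 FPKM in control libraries but 0.970 to 2.29 FPKM in heat stress. That ZP2 is particular to gonad in these liver libraries was not established either. The part of these markers in the results was not tested, and in whole liver fewer cells of a type and less RNA per cell cannot be told apart. No matched RNA measurement was used here, so footprints reflect mRNA amount as well as translation.

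All 5 entries had more footprints for their depth in heat stress. The 4E-BP gene eif4ebp3 changed most, about 10-fold, followed by EIF4G2 entry 1 at 4.77-fold and EIF4G2 entry 2 at 3.27-fold, and both kinase genes stood at 2.36-fold. By limma-voom at recovered depth all 5 rose at an adjusted p of 0.05, where 87.5% of the 1152 tested entries passed in either direction, 71.3% rose and 16.2% fell. The FPKM ranges of the groups did not overlap in any of the 5, which was also so in 98.7% of all listed entries, with heat stress the higher in 75.5%. These shares come from the selection of the table, so the count of 5 sets the members apart from no other listed gene.

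The repressor gene eif4ebp3 rested on few footprints in control. Control replicates 1, 2 and 3 held 8, 6 and 8 footprints, or 3.11, 3.05 and 4.75 FPKM. Heat stress replicates 1, 2 and 3 held 50, 31 and 134 footprints, or 26.97, 29.16 and 63.6 FPKM. Every heat stress library lay above every control library, and heat stress replicate 3 stood well above the other heat stress libraries. The group means were 3.64 ± 0.965 and 39.9 ± 20.5 FPKM (SD, n = 3 per group). The 22 control footprints have a 95% exact Poisson interval of 13.8 to 33.3, and the 215 in heat stress one of 187 to 246, for counting error only. Its log2 fold change was 3.35 ± 0.54 (SE; limma-voom adjusted p = 0.00597), a fold of 10.2 with a 95% interval of 4.44 to 23.3. The entry met the test's filter of 10 depth-scaled footprints in 3 libraries through heat stress libraries alone. Its call is therefore no support for a rise. Without control replicate 1 it no longer passed (limma-voom adjusted p = 0.0518).

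EIF4G2 entry 1 had the most footprints of the 5 in both groups. Its SE was the smallest by little, at 0.262 against 0.270 for RPS6KB2 and 0.272 for EIF4G2 entry 2. It stood at 3.44, 4.23 and 5.10 FPKM in control replicates 1, 2 and 3, from 67, 63 and 65 footprints. In heat stress replicates 1, 2 and 3 it stood at 15.9, 19.6 and 25.2 FPKM, from 224, 158 and 403 footprints. The lowest heat stress library was thus about 3 times the highest control library. The log2 fold change was 2.25 ± 0.26 (SE; limma-voom adjusted p = 0.000826), a fold with a 95% interval of 3.20 to 7.12.

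EIF4G2 entry 2 was less abundant. Control replicates 1, 2 and 3 gave 2.71, 2.23 and 1.69 FPKM, from 53, 34 and 22 footprints. Heat stress replicates 1, 2 and 3 gave 6.85, 6.57 and 8.49 FPKM, from 98, 54 and 137 footprints. The groups did not overlap, and the heat stress libraries lay close together at 7.30 ± 1.04 FPKM against 2.21 ± 0.510 FPKM in control (SD, n = 3). Its log2 fold change was 1.71 ± 0.27 (SE; limma-voom adjusted p = 0.00561), a fold with a 95% interval of 2.16 to 4.96. Both EIF4G2 calls held with each library left out in turn. The share of all listed entries whose calls did so was not counted. Here and below, a call that held is therefore no mark that sets an entry apart. The 2 entries had nearly the same effective length, the second at 1.02 times the first as read from counts over FPKM, and their counts differed in every library. Salmonid genomes carry many duplicated genes of close sequence, and no source used here says how reads shared by such copies were assigned, so the split between the entries is uncertain.

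The ERK-driven kinase gene Rps6ka3 was 4.57, 5.53 and 3.69 FPKM in control replicates 1, 2 and 3, from 72, 67 and 38 footprints. It was 7.82, 14.5 and 11.7 FPKM in heat stress replicates 1, 2 and 3, from 89, 94 and 151 footprints. Heat stress replicate 1 was the nearest to control and replicate 2 the highest. The log2 fold change was 1.24 ± 0.29 (SE; limma-voom adjusted p = 0.0418), a fold with a 95% interval of 1.51 to 3.69.

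The mTORC1-driven kinase gene RPS6KB2 was 4.44, 4.74 and 6.17 FPKM in control replicates 1, 2 and 3, from 46, 37 and 42 footprints. It was 10.8, 15.2 and 10.8 FPKM in heat stress replicates 1, 2 and 3, from 80, 65 and 91 footprints. Here too heat stress replicate 2, the shallowest library, was the highest, and the groups did not overlap. The log2 fold change was 1.24 ± 0.27 (SE; limma-voom adjusted p = 0.0280), a fold with a 95% interval of 1.56 to 3.57. Both kinase calls were lost when any library other than heat stress replicate 1 was left out, with limma-voom adjusted p up to 0.209 for Rps6ka3 and 0.187 for RPS6KB2. In the authors' deposited table, the FDR was 0.0155 for Rps6ka3 and 0.0312 for RPS6KB2, against 7.97e-12 for EIF4G2 entry 1, 3.76e-07 for eif4ebp3 and 0.000479 for EIF4G2 entry 2.

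**Figure D1:**
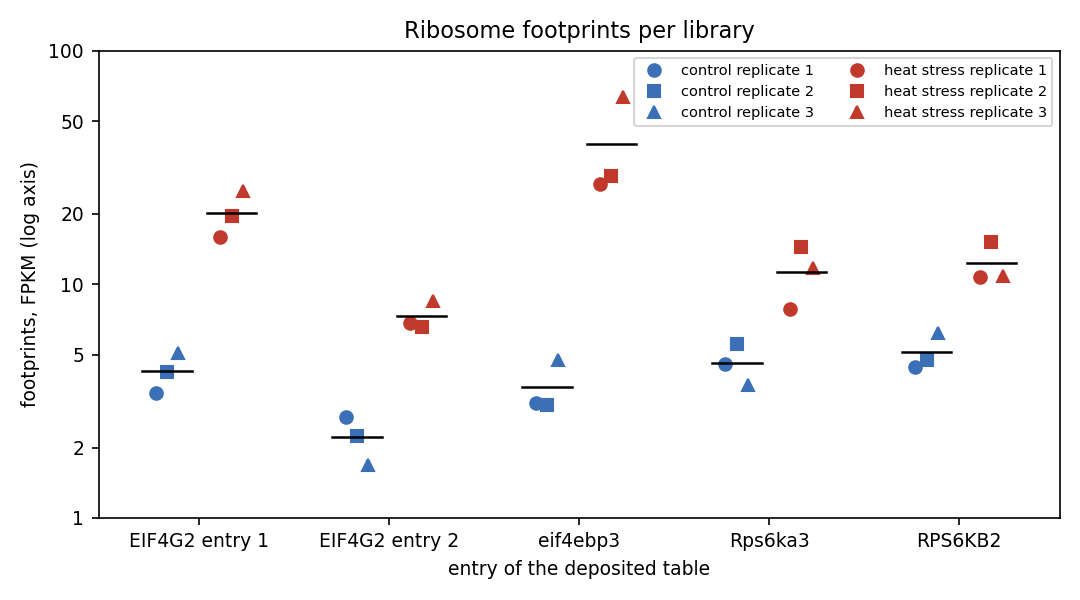
Footprint level in FPKM (log axis) of the 5 entries, 1 point per library, with control in blue, heat stress in red, a marker shape per replicate number and a bar at each group mean. Every heat stress point of an entry lies above its control points, and eif4ebp3 in heat stress replicate 3, at 63.6 FPKM, is the highest point.

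The order of the entries by FPKM, which is per length, was not the same in both groups. In control, RPS6KB2 at 5.12 ± 0.924, Rps6ka3 at 4.60 ± 0.920, EIF4G2 entry 1 at 4.26 ± 0.830 and eif4ebp3 at 3.64 ± 0.965 FPKM (SD, n = 3) followed each other with overlapping ranges, though EIF4G2 entry 1 lay above eif4ebp3 in 3 of 3 libraries. EIF4G2 entry 2 lay below all of these libraries. In heat stress eif4ebp3 at 39.9 ± 20.5 FPKM came first, and EIF4G2 entry 1 at 20.2 ± 4.66 FPKM second, each without overlap with the entry next in order. RPS6KB2 at 12.3 ± 2.55 and Rps6ka3 at 11.3 ± 3.34 FPKM came next with overlapping ranges, RPS6KB2 being the higher in 2 of 3 libraries. EIF4G2 entry 2 came last, below Rps6ka3 in 3 of 3 libraries although the ranges of these entries overlapped. As footprints are proportional to length, eif4ebp3 held few of them at a high FPKM. Its effective length, from counts over FPKM, was 0.132 of that of EIF4G2 entry 1, against 0.808 for Rps6ka3 and 0.527 for RPS6KB2.

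The size of every fold change depended on how libraries were scaled. Other library sizes move all entries by nearly the same amount. The differences between the entries could therefore hardly change, and their stability is no test of them. With TMM factors over the listed genes, which take most of them as unchanged, the median log2 fold change of all tested entries moved by -1.48. On that scale eif4ebp3 stood at 1.88, EIF4G2 entry 1 at 0.77 and EIF4G2 entry 2 at 0.23, while Rps6ka3 and RPS6KB2 both stood at -0.24. None of the 5 passed there, where 7.99% of tested entries rose, and 2 of the 5, eif4ebp3 and EIF4G2 entry 1, had an unadjusted p under 0.05. The share of all tested entries with such an unadjusted p on that scale was not counted, so this count of 2 has no background. Relative to the median of all tested entries, eif4ebp3 lay 1.69 above at recovered depth and 1.71 above under TMM. EIF4G2 entry 1 lay 0.60 above and 0.59 above, and EIF4G2 entry 2 lay 0.05 above on both scales. Both kinase genes lay below that median, at -0.42 for each on both scales.

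**Figure D2:**
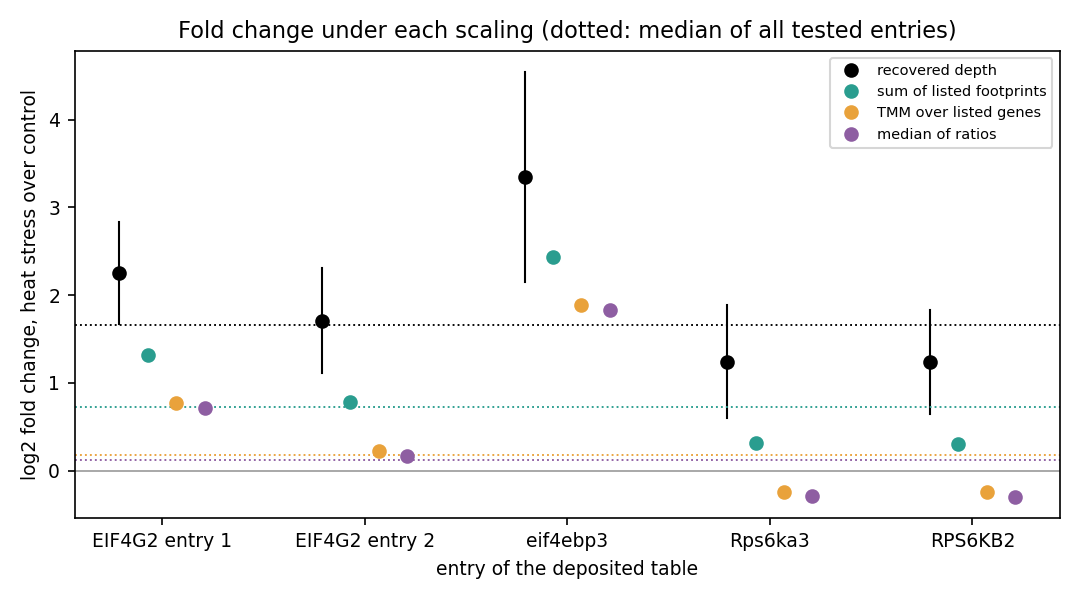
Log2 fold change of each entry, heat stress over control, under 4 scalings of the libraries, with 95% intervals at recovered depth. Dotted lines mark the median of all tested entries in the matching colour. Each scaling shifts all entries nearly alike, so each stays at about the same distance from that median by construction. The sign of Rps6ka3 and RPS6KB2 turns under TMM and median of ratios.

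Ratios between entries within 1 library need no depth, and all 10 pairs of entries were compared. In 5 pairs the ratios of the groups did not overlap. An exact two-sided permutation test gave p = 0.1 for each of these, the smallest that 3 against 3 libraries allow, and 0.2 after Benjamini-Hochberg adjustment over the 10 pairs. The entry eif4ebp3 was in 4 of these pairs, so they are not separate results. How often the ratios of other listed entries separate the groups was not counted. The number of pairs without overlap, here and below, therefore has no background and sets the members apart from no other listed gene.

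The repressor gene gained on the kinase gene RPS6KB2. Their ratio of FPKM, eif4ebp3 over RPS6KB2, was 0.700, 0.643 and 0.770 in control replicates 1, 2 and 3 and 2.50, 1.92 and 5.87 in heat stress replicates 1, 2 and 3. This was a 4.33-fold shift, in which every heat stress library lay above every control library. Against Rps6ka3 the shift of eif4ebp3 was 4.28-fold, and against EIF4G2 entry 2 it was 3.10-fold, both without overlap. The ratio of EIF4G2 entry 1 over eif4ebp3 was 1.11, 1.39 and 1.07 in control and 0.590, 0.671 and 0.396 in heat stress. The repressor gene thus lay below this entry in each control library and above it in each heat stress library. The control ratios rest on 8, 6 and 8 footprints of eif4ebp3, so counting error leaves its place below this entry uncertain. EIF4G2 entry 1 over RPS6KB2 was 0.775, 0.892 and 0.827 in control and 1.47, 1.29 and 2.32 in heat stress, a 1.97-fold shift without overlap.

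The other 5 pairs overlapped between groups. The 2 EIF4G2 entries stood at ratios, the first over the second, of 1.27, 1.90 and 3.02 in control libraries, against 2.32, 2.98 and 2.96 in heat stress (two-sided exact permutation test, p = 0.4). A difference between the responses of these entries was therefore not detectable with these libraries. The ratio of Rps6ka3 over RPS6KB2 was 1.03, 1.17 and 0.598 in control libraries, against 0.725, 0.950 and 1.08 in heat stress, a mean log2 difference of 0.02 between groups (exact permutation test p = 1). For EIF4G2 entry 1 over Rps6ka3 the shift was 1.95-fold, with control replicate 3 inside the heat stress range (exact permutation test p = 0.2). EIF4G2 entry 2 shifted 1.38-fold against Rps6ka3 and 1.40-fold against RPS6KB2 (exact permutation test p = 0.3 and p = 0.4).

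**Figure D3:**
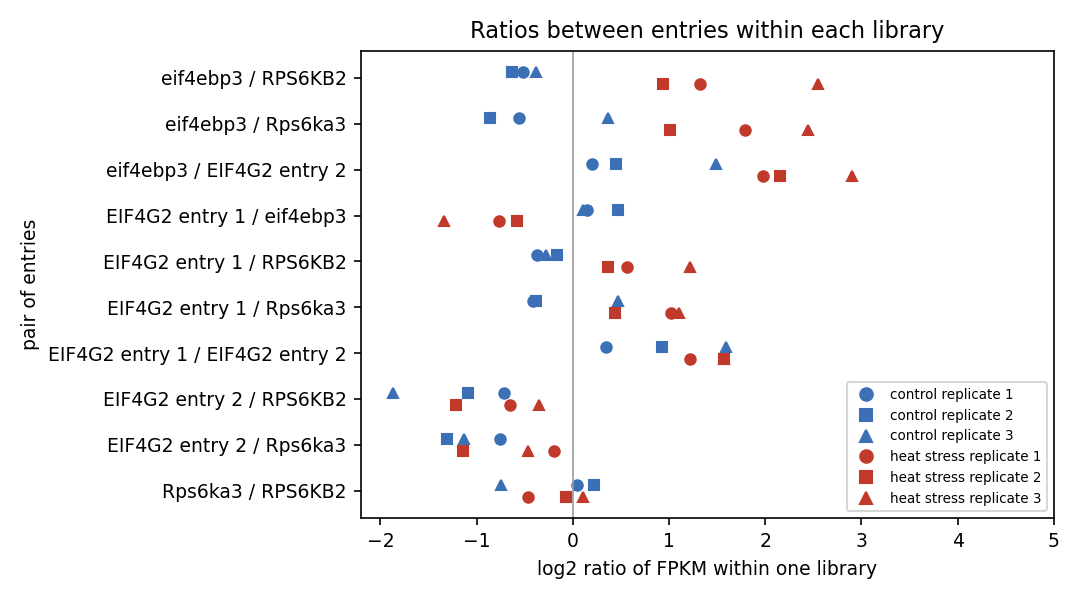
Log2 ratio of FPKM within each library for the 10 pairs of entries, with control in blue above heat stress in red and a marker shape per replicate. The 4 pairs with eif4ebp3 and the pair EIF4G2 entry 1 over RPS6KB2 separate the groups, and Rps6ka3 over RPS6KB2 lies around 0 in both.

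The canonical scaffold was set beside its relative. EIF4G1, the eIF4G that binds eIF4E, also had 2 entries, spelled EIF4G1 and Eif4g1, with log2 fold changes of 1.47 ± 0.27 and 1.73 ± 0.32 (SE) and limma-voom adjusted p of 0.0123 and 0.0126. Under TMM these log2 fold changes were -0.0098 and 0.25. The calls held in 4 and 3 of 6 fits with a library left out. The summed level of the EIF4G1 entries was 6.74 ± 1.37 FPKM in control against 21.03 ± 5.22 FPKM in heat stress, and that of the EIF4G2 entries 6.47 ± 0.320 and 27.5 ± 5.58 FPKM (SD, n = 3). The EIF4G2 sum over the EIF4G1 sum was 1.19, 0.869 and 0.891 in control replicates 1, 2 and 3 and 1.30, 0.967 and 1.81 in heat stress replicates 1, 2 and 3, which overlapped (exact permutation test p = 0.2). The level of eif4ebp3 was 0.603, 0.410 and 0.623 of the EIF4G1 sum in control and 1.55, 1.08 and 3.42 of it in heat stress, with no overlap (exact permutation test p = 0.1). Heat stress replicate 3 was again the highest library.

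Among all 17 listed entries matched as translation factors, 15 rose by limma-voom, 0 fell and 2 did not pass, EIF1B and eef1akmt. This stands beside 71.3% that rose and 87.5% that passed over all tested entries. Their median log2 fold change was 1.90, against 1.66 over all tested entries. Under TMM 5 of the 17 were below 0 and none passed, where 7.99% of all tested entries rose. At recovered depth all 17 had an unadjusted p under 0.05, as had 1151 of the 1152 tested entries of the table. Within this list eif4ebp3 had the highest log2 fold change and EIF4G2 entry 1 the fourth highest. Between them stood EIF5A, a factor that relieves stalled ribosomes, at 3.10 ± 1.36 and 20.6 ± 4.82 FPKM, and eif2ak3, the ER stress kinase PERK that matched by the start of its symbol, at 1.56 ± 0.107 and 10.5 ± 3.27 FPKM (SD, n = 3). The start codon factor gene eif1b went from 8.86 ± 2.15 to 37.4 ± 6.25 FPKM, and Gspt1, a termination factor gene, from 7.10 ± 0.918 to 19.9 ± 3.64 FPKM. Of these calls, 6 held with each library left out in turn, those of both EIF4G2 entries, eif2ak3, EIF5A, eif1b and Gspt1. The share of all listed entries whose calls held in every such fit was not counted, so this count has no background. In single fits 534 to 981 listed genes passed.

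Of 10 listed entries of the mTORC1 and insulin pathway, to which RPS6KB2 belongs, 5 rose and 3 fell, while 1 did not pass and 1 had too few footprints for the test, where 71.3% of all tested entries rose and 16.2% fell. Their median log2 fold change was 1.03, against 1.66 over all tested entries. RPS6KB2, Pdcd4, PIK3CG, irs1 and irs2-b rose, of which RPS6KB2 and irs2-b were below 0 under TMM. The calls of RPS6KB2 and irs2-b each held in 1 of 6 fits with a library left out, and those of PIK3CG and irs1 in 5 of 6. Pdcd4, a repressor of the helicase eIF4A and in mammals a target of S6 kinase, went from 8.21 ± 1.22 to 26.7 ± 3.23 FPKM (SD, n = 3), with a call that held with each library left out. Deptor, an inhibitory partner of mTOR, fell in both of its entries, from 38.5 ± 5.39 to 10.5 ± 1.93 FPKM and from 11.1 ± 1.78 to 4.82 ± 2.02 FPKM, under TMM as well. The second Deptor call was lost whichever library was left out (limma-voom adjusted p up to 0.243). The sestrin gene sesn1, an inhibitor upstream of mTORC1, fell from 33.6 ± 2.02 to 15.2 ± 4.72 FPKM, a call that held in 2 of 6 fits with a library left out. Its relative sesn2 had 0 footprints in control and 43 over the heat stress libraries, and was not tested in the main fit for its low counts. With a library left out it reached the filter in 4 fits and passed in all 4 (limma-voom adjusted p up to 0.0105). With 0 control footprints it could reach the filter through heat stress libraries alone, so these passes are no support for a rise. The insulin receptor substrate gene irs1 went from 0.240 ± 0.0964 to 1.59 ± 0.236 FPKM, from 13 control footprints, and irs2-b from 3.30 ± 0.445 to 6.85 ± 1.001 FPKM. Like sesn2, irs1 reached the filter through heat stress libraries alone, so its call is no support either. The phosphoinositide 3-kinase subunit genes PIK3CG and PIK3R1 stood at log2 fold changes of 1.66 (limma-voom adjusted p = 0.00983) and -1.64 (limma-voom adjusted p = 0.126). PIK3CG matched by the start of its symbol alone, so its place in the insulin pathway is not established. Under TMM 4 of the 10 entries passed as lower, both Deptor entries, sesn1 and PIK3R1, the last at -3.15 (limma-voom adjusted p = 0.00494). On that scale 266 of the 1152 tested entries passed as lower. No entry had the symbol of mTOR itself, of rps6kb1, the other S6 kinase of this kind, or of eif4ebp1 and eif4ebp2, the other 4E-BP genes, and such genes were not analysed here.

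All 5 listed entries matched to the RSK and ERK list rose by limma-voom, with a median log2 fold change of 2.01. Over all tested entries 71.3% rose and the median was 1.66. The 5 are Rps6ka3, 3 entries of the MNK genes and spryd3. The last matched by the start of its symbol alone, so its place in this pathway is not established. The median of 2.01 is the value of spryd3 itself. The MNK kinases bind eIF4G and phosphorylate eIF4E. Their gene mknk1 had 3.19, 1.67 and 4.86 FPKM in control replicates 1, 2 and 3 and 39.2, 121 and 97.5 FPKM in heat stress replicates 1, 2 and 3, a log2 fold change of 4.71 ± 0.52 (SE; limma-voom adjusted p = 0.000586). The 2 mknk2 entries went from 6.63 ± 1.02 to 43.9 ± 13.2 FPKM and from 6.68 ± 0.405 to 16.6 ± 2.01 FPKM (SD, n = 3). Under TMM mknk1 alone of the 5 passed, where 7.99% of all tested entries rose, and Rps6ka3 and the second mknk2 entry were below 0. The log2 fold change of Rps6ka3 was the lowest of the 5. With each library left out in turn, the calls of mknk1 and the first mknk2 entry held in 6 of 6 fits, that of the second mknk2 entry in 4, that of spryd3 in 3 and that of Rps6ka3 in 1.

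**Figure D4:**
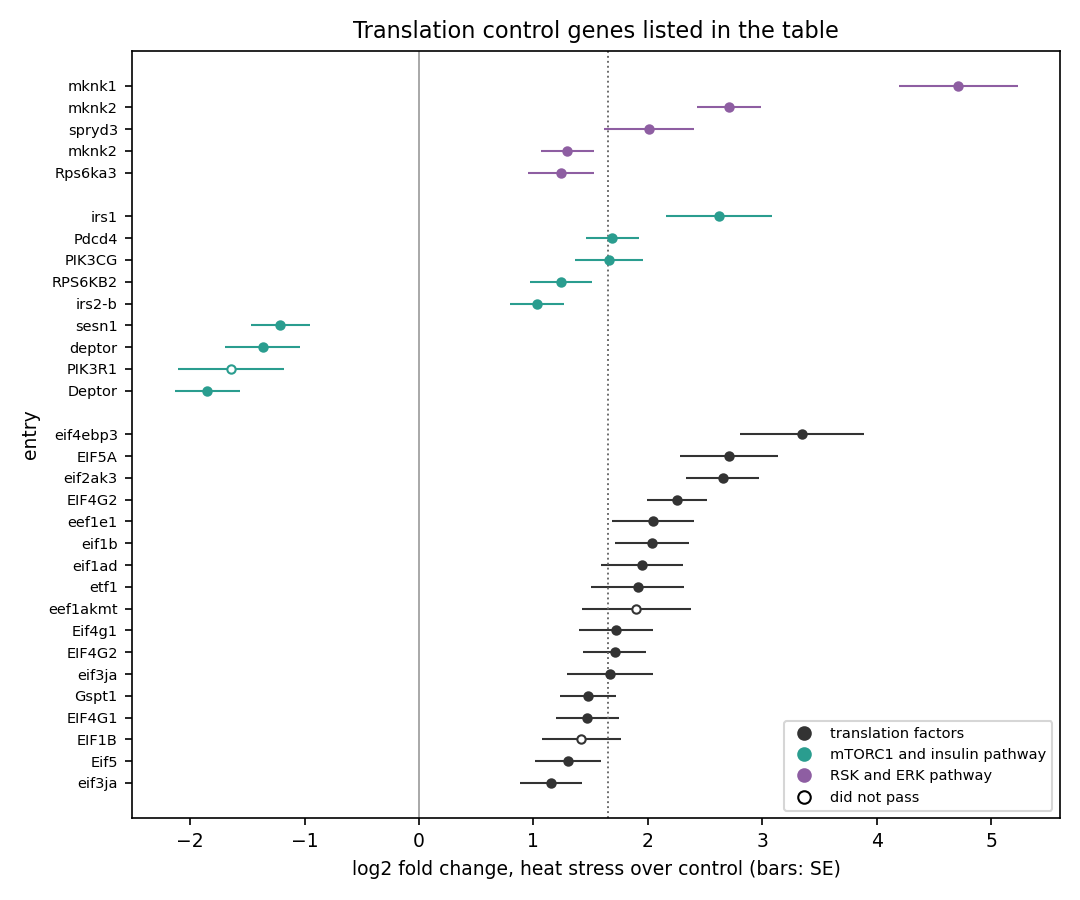
Log2 fold change at recovered depth, with SE, of the tested entries of 3 lists: translation factors, mTORC1 and insulin pathway, and RSK and ERK pathway. Open points did not pass, the dotted line is the median of all tested entries at 1.66, and both Deptor entries, sesn1 and PIK3R1 lie below 0.

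The genes whose level followed each entry most closely over the 6 libraries were found by Pearson correlation of log2(FPKM + 0.1), among 1035 other listed genes with a symbol and at least 100 footprints. For EIF4G2 entry 1 these were ssr1 (r = 0.999), MIA3 (r = 0.998) and Gspt1 (r = 0.997). For eif4ebp3 they were jun (r = 0.997), Cd276 (r = 0.996) and C6orf136 (r = 0.995), and for EIF4G2 entry 2 creld2 (r = 0.996), fkbp9 (r = 0.996) and Pdcd4 (r = 0.995). Rps6ka3 was followed by Rnf139 (r = 0.998), arhgap21 (r = 0.996) and cdh2 (r = 0.992), and RPS6KB2 by 2 entries of elf3 with the same levels (r = 0.999) and arcn1a (r = 0.998). The points share the same 6 libraries in 2 groups, and the median r over all genes compared was 0.887 to 0.939 for the 5 entries, so high values are common in this table.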

How the data were processed

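The authors deposited 1 fixed-width table of footprint counts, FPKM, group means and log2 fold change with its p-value and FDR, per the file headers. The submitters' processing notes name Bowtie2 and edgeR without saying for what. Genome build, annotation, counter and rRNA removal: not given in the sources used here. The table was read at 8 characters a cell, and 411 lines of overflowing annotation were not used. The unit check could read the count columns only as unspecified, so edgeR and DESeq2 were not run on them. The limma-voom fits did use these counts.

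Relative depth was the median ratio of count over FPKM between libraries, taken on 94 genes of 200 or more footprints and 10 or more FPKM (SD at most 1.24%). These depths were the library sizes of limma-voom (limma 3.58.1, R 4.3.3). Entries reaching 10 depth-scaled footprints in 3 libraries (in as many as the smaller group when a library was left out) and 15 in all were tested, 1152 of 1213. Benjamini-Hochberg adjustment ran over 29300 genes, the number the authors tested as estimated from FDR, rank and p-value. The fit was also run on simulated data in which most entries did not change. The listed entries were selected as changed, so that check does not cover the choice of scaling. Exact tests used scipy 1.17.1, figures matplotlib 3.10.9, and tables pandas 2.3.3 and numpy 2.4.6 under Python 3.11.15. Intervals of counts cover counting error only.

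The members and gene lists were chosen with earlier results of these data known. Named are every member, every listed entry of a list up to 15 (the 8 with the smallest p of a longer list), and the 3 genes most correlated with each member; the text names a part of them. The EIF4G1 entries, EIF1B and eef1akmt, the EIF4G1 and EIF4G2 sums and their ratios were chosen after their values were seen.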

Additional observations from a re-analysis of the deposited data

How the results depend on the processing

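The call of each member rests on the scale. With TMM factors, median-of-ratios factors and the sum of the listed footprints as library sizes, 0, 0 and 1 of the 5 members passed, 8, 8 and 13 of the 51 tested translation control entries in place of 48, and 358, 354 and 469 listed genes in place of 1008. The log2 fold changes under these 3 were 0.77, 0.71 and 1.32 for EIF4G2 entry 1, which passed under the last alone, 0.23, 0.17 and 0.78 for EIF4G2 entry 2, 1.88, 1.83 and 2.43 for eif4ebp3 (limma-voom adjusted p = 0.402, 0.451 and 0.0559), -0.24, -0.29 and 0.31 for Rps6ka3, and -0.24, -0.30 and 0.31 for RPS6KB2. The median of all tested entries moved by -1.48, -1.53 and -0.93, and 25.7%, 24.9% and 44.1% of calls were higher in heat stress in place of 81.4%. With at least 10 FPKM in 3 libraries fewer entries were tested, and EIF4G2 entry 2 and Rps6ka3 were not among them. All 3 members tested passed, with 22 of 26 translation control entries and 556 of 651 listed genes. These 3 members reached 10 FPKM in heat stress libraries alone, so their passing there is no support for a rise. Rps6ka3 did not pass by limma on log2(FPKM + 0.1), at 1.26 (limma adjusted p = 0.0837), or log2(FPKM + 1), at 1.11 (limma adjusted p = 0.0604), where the other 4 did. With each library left out, 2 to 5 members, 20 to 48 translation control entries and 534 to 981 listed genes passed, the lowest without control replicate 1. The log2 fold change ran from 2.07 to 2.42 for EIF4G2 entry 1, 1.55 to 1.88 for EIF4G2 entry 2, 2.91 to 3.61 for eif4ebp3, 1.07 to 1.49 for Rps6ka3 and 1.09 to 1.37 for RPS6KB2, and 5 to 8 pairs of entries did not overlap, 8 without heat stress replicate 2. The replicate block gave 5 members and 1102 listed genes. The limma-voom adjusted p was lower with it for all 5 members, as for Rps6ka3 at 0.00872 in place of 0.0418. Same-numbered libraries did not deviate together (correlations of -0.108, -0.228 and 0.0242 over 633 genes). No pairing by number was seen in these correlations, which cannot exclude one. Counts in place of FPKM, or FPKM + 0.1, gave 5 pairs without overlap, and FPKM + 1 gave 6, with EIF4G2 entry 1 over Rps6ka3 added. The planned edgeR and DESeq2 fits were not run, as the count columns could not be entered as counts. Apart from the construction of each scaling and the number tested, the cause was not tested. Depth limits eif4ebp3 most, with 6 to 8 footprints in a control library.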

Other observations

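Genes of the integrated stress response, in which phosphorylation of eIF2 slows translation while ATF4 is made, had 15 listed entries. In the main limma-voom fit 13 rose, 1 fell and 1, sesn2, was not tested, with a median log2 fold change of 1.99. Over all tested entries 71.3% rose, 16.2% fell and the median was 1.66. Of the 14 calls 5 held with each library left out in turn, a count that was not made over all listed entries. Under TMM 2 of those that rose were below 0 and 1 rose, where 7.99% of all tested entries rose. PPP1R15B, a subunit of the phosphatase that reverses eIF2 phosphorylation, had 2 entries, at 0.0867 ± 0.0757 and 3.54 ± 1.80 FPKM (SD, n = 3) for the entry that passed under TMM, from 2 control footprints, and at 2.68 ± 0.831 and 7.81 ± 1.28 FPKM for the other. The glutathione-degrading enzyme gene chac1 went from 0.670 ± 0.215 to 9.29 ± 1.08 FPKM, from 7 control footprints, and did not pass under TMM (limma-voom adjusted p = 0.0675). Among the 5 calls that held were chac1, the PPP1R15B entry that passed under TMM and a DDIT3 entry with 2 control footprints. Each of these reached the filter on footprints through heat stress libraries alone, so their calls are no support for a rise. Of 4 atf4 entries 2 held identical counts in every library and may be the same reads. Nupr1, a stress-response gene, fell from 106 ± 23.7 to 34.4 ± 14.4 FPKM, a call that held in 2 of 6 fits with a library left out. It passed as lower under TMM, as did 266 of the 1152 tested entries.

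All 5 listed entries of ribosome biogenesis and tRNA synthetases rose, with a median log2 fold change of 1.60, slightly below the 1.66 of all tested entries, of which 71.3% rose, and 2 of them were below 0 under TMM. The seryl-tRNA synthetase gene sars1 had 2 entries, from 3.73 ± 0.456 to 14.6 ± 1.59 FPKM and from 10.6 ± 2.88 to 32.1 ± 6.04 FPKM (SD, n = 3). EPRS1 went from 2.45 ± 0.393 to 6.58 ± 0.110 FPKM. These 3 calls held with each library left out in turn, whereas those of DKC1 and tars3 held in 1 of 6 such fits. Of cytosolic ribosomal proteins 1 entry was listed, rpl5a, at 6.09 ± 0.429 and 18.9 ± 5.24 FPKM, and of mitochondrial ones 1, mrpl18, at 16.5 ± 0.817 and 6.16 ± 2.40 FPKM.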
